A study of Mus musculus with 34 samples.

Results

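The 10 genes described here belong to the cAMP and CREB signalling route and were measured in the mouse dorsal hippocampus: the transcription factors *Creb1* and *Crem*, the coactivators *Crtc1*, *Crtc2* and *Crtc3*, the salt-inducible kinases *Sik1*, *Sik2* and *Sik3*, and the cAMP phosphodiesterases *Pde4b* and *Pde4d*. They were taken by gene symbol, and all 10 were found among the 54532 genes of the bulk RNA-seq count table and among the 22018 genes with enough counts to be tested. The libraries came from adult male C57BL/6J mice, 1 library per mouse and 8 in all. In the SOR group, 4 mice were trained in spatial object recognition, a hippocampus-dependent task in which an animal learns where objects stand in an arena, and were euthanized 1 h later. The 4 homecage mice stayed untrained in their cages. No transgene or drug is named for either group, and the dissected tissue held all cell types of the dorsal hippocampus. The comparison asks which of these transcripts differed between trained and homecage mice in the early phase of memory consolidation.

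When cAMP rises in a neuron, protein kinase A phosphorylates the transcription factor CREB, which sits on cAMP-response elements near its target genes. The CRTC proteins are coactivators that enter the nucleus when the phosphatase calcineurin removes their phosphate groups, and the SIK kinases put those groups back and hold CRTC in the cytoplasm. PDE4 enzymes break cAMP down and so close the route at its start. In the hippocampus this route is known for turning synaptic activity into the transcription that long-term memory needs, and *Sik1*, *Crem* and *Pde4b* are known as genes that can themselves be induced by cAMP.

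None of the 10 genes passed the test across all genes. Expression is given as CPM, a gene's share of its library's counts on library sizes scaled by upper-quartile factors. Each difference was tested in edgeR by its quasi-likelihood method, and p was adjusted by Benjamini-Hochberg over the 22018 genes. With both an adjusted p under 0.05 and a fold over 1.4 required, 0 of 10 were called, against 0.173% of all genes tested, and at the adjusted p alone 0 of 10 were past it, against 0.309%. *Sik1* and *Sik2* came nearest, and the other tools moved them to either side of the threshold, as described with each gene below. An unadjusted p under 0.05 was found for 6 of the 10, and for 10.1% of all genes tested. Of these, 5 were higher in SOR mice (*Sik1*, *Sik2*, *Crem*, *Crtc2* and *Creb1*), where 4.54% of all genes were, and 1 was lower (*Pde4b*), where 5.51% were. For 3 genes (*Sik1*, *Sik2* and *Crem*) all 4 SOR values lay above all 4 homecage values, a separation seen for 2.98% of all genes, and for 0 of the 10 they lay below all of them, which 3.96% of all genes showed. The median log2 fold change of the 10 genes was 0.11, beside -0.02 over all genes tested. The 10 genes were chosen with earlier results of these data known, so these shares are not independent evidence of a response.

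**Figure D1:**
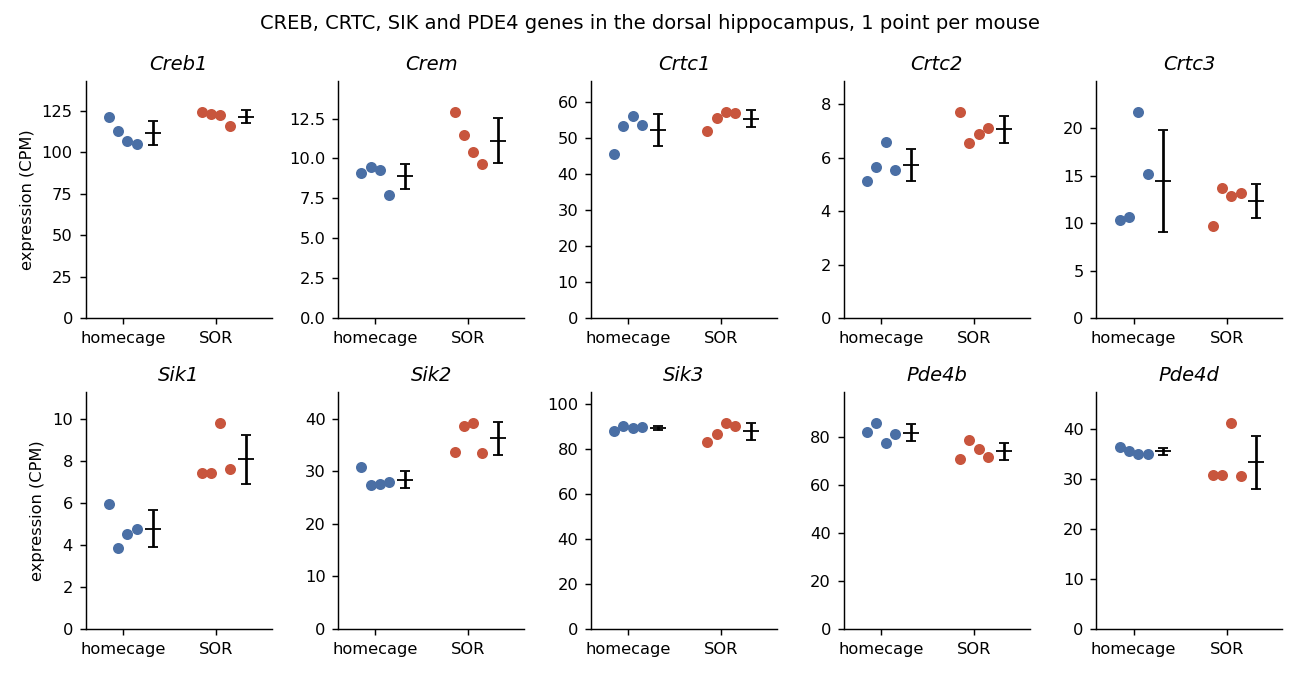
Expression in CPM (vertical axes, from 0) of the 10 genes in each homecage (blue) and SOR (red) mouse, with the group mean and SD (n = 4) as black bars beside the points. The groups stand apart for *Sik1*, *Sik2* and *Crem* and overlap for the other genes.

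Total counts lay between 51406011 and 81525977 per library. The genes with the fewest counts were *Sik1*, with 252.9 to 640.0 per mouse, and *Crtc2*, with 282.5 to 573.4. The tissue label was compared with 54 marker genes in 11 lists. All 54 were detected in every library, the lowest at 0.688 CPM, and those of excitatory neurons summed to between 2779 and 3208 CPM in homecage and between 2912 and 3199 CPM in SOR mice. Those of thalamus, which lies outside the hippocampus, summed to between 121.8 and 137.5 CPM in homecage and between 108.5 and 132.3 CPM in SOR mice. The summed level of each of the 11 lists overlapped between the groups and 0 of the 54 markers passed an adjusted p of 0.05 in edgeR. In 5 lists, however, every gene had the same sign, where 43.8% of all genes tested were higher in SOR mice. Lower in SOR mice were 7 of 7 oligodendrocyte markers (median log2 fold change -0.19) and 4 of 4 of dentate granule cells (-0.10), and higher were 5 of 5 of choroid plexus (1.26), 5 of 5 of red blood cells (0.37) and 4 of 4 of CA1 pyramidal cells (0.03). Choroid plexus markers spread most, from 25.0 to 1088 CPM in homecage and from 41.2 to 3980 CPM in SOR mice, with SOR replicate 1 highest, and the part of these markers in the values below was not tested. SOR replicate 1 also stood apart from the other SOR libraries, with a chi-square per degree of freedom between counts of 50.1 to 54.9 against them and 12.1 to 18.1 among them, where homecage pairs had 13.8 to 51.03. Without it the log2 fold changes of *Sik1*, *Sik2*, *Crem* and *Crtc2* were 0.80, 0.38, 0.24 and 0.26.

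*Sik1* (ENSMUSG00000024042, chromosome 17 of GRCm38 from 31844250 to 31855804) encodes the SIK kinase whose transcript is itself induced by cAMP and which acts as a feedback brake on CRTC. The homecage mice had 5.96, 3.83, 4.52 and 4.78 CPM and the SOR mice 7.45, 7.42, 9.83 and 7.62 CPM. Every SOR mouse was above every homecage mouse, and SOR replicate 3 stood highest. The group means were 4.77 ± 0.886 and 8.08 ± 1.17 CPM (SD, n = 4 each), a log2 fold change of 0.76 (standard error, SE, 0.147, 95% interval 0.44 to 1.09), or 1.70-fold. This was the widest difference among the 10 genes, and *Sik1* ranked 101 of 22018 by p, with an adjusted p of 0.0775 in edgeR. Permuting the log2 CPM values in all ways gave an exact two-sided p = 0.0286, the smallest that 4 against 4 allow. In 13 other fits with all mice its log2 fold change was 0.76 to 0.78 and its adjusted p lay anywhere from 3.79e-05 to 0.176. It was under 0.05 in 6 of them: the fit without a filter on low counts, edgeR's likelihood ratio test, DESeq2, and that ratio test with 1, 2 or 3 RUVs factors, which are estimates of unwanted variation taken from replicates.

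*Sik2* (ENSMUSG00000037112, chromosome 9 from 50892801 to 51009073) encodes the SIK family member best known in neurons for keeping CRTC1 in the cytoplasm. In homecage mice it had 30.7, 27.4, 27.6 and 27.9 CPM, and in SOR mice 33.7, 38.6, 39.2 and 33.4 CPM. The SOR mice fell into a lower and a higher pair, and both pairs were above all homecage mice. Its means of 28.4 ± 1.56 and 36.2 ± 3.11 CPM (SD, n = 4 each) gave a log2 fold change of 0.35 (SE 0.0691, 95% interval 0.20 to 0.50), which is below a 1.4-fold difference. The adjusted p was 0.0805 at rank 107 of 22018 (edgeR quasi-likelihood test), and the exact permutation p was again 0.0286. The adjusted p of *Sik2* ran from 1.84e-07 to 0.240 over the 13 other fits and was under 0.05 in 7: TMM and RLE scaling, the likelihood ratio test, DESeq2 and 1, 2 or 3 RUVs factors. The annotation places *Ppp2r1b*, a protein phosphatase 2A subunit, on the opposite strand with 1429 bases of shared exons. *Ppp2r1b* had 11.8 ± 1.36 and 13.998 ± 1.73 CPM (log2 fold change 0.24, adjusted p = 0.490 in edgeR). The library kit keeps strand, but whether the counting used it is not given in the sources used here, so reads of the shared stretch cannot be assigned with certainty.

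*Sik3* (ENSMUSG00000034135, chromosome 9 from 46012820 to 46224194), the kinase of this family with the highest level here, had 88.2, 90.1, 89.2 and 89.6 CPM in homecage mice and 83.0, 86.9, 91.8 and 90.1 CPM in SOR mice. The homecage values were packed within 2 CPM, and the SOR values lay on both sides of them. The log2 fold change was -0.02 (SE 0.0395, adjusted p = 0.900 in edgeR). Its 95% interval, -0.11 to 0.07, holds no change as large as the lower bound of *Sik1* or of *Sik2*.

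**Figure D2:**
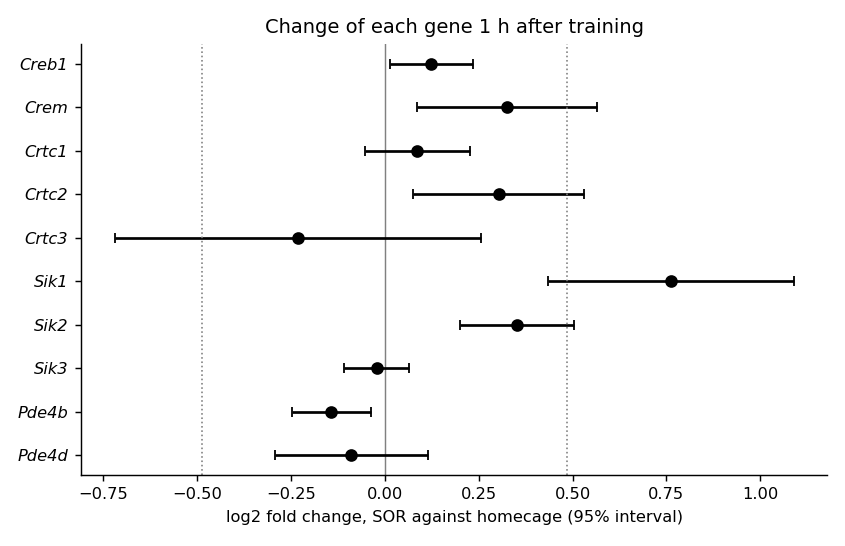
Log2 fold change of each gene between SOR and homecage mice (points; above 0 means higher in SOR) with the 95% interval of edgeR's quasi-likelihood fit (bars); dotted lines mark a fold change of 1.4 in either direction. *Sik1*, at 0.76, is the only one of the 10 points beyond a dotted line, and its interval crosses that line.

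Whether the 3 kinases differed in response was tested with the ratio of their counts within each mouse, which does not depend on how libraries are scaled. The log2 ratio of *Sik1* to *Sik3* was -4.24 ± 0.276 in homecage and -3.45 ± 0.158 in SOR mice (SD, n = 4 each), 0.79 higher after training, and that of *Sik2* to *Sik3* was 0.37 higher. In both ratios all SOR mice were above all homecage mice (exact two-sided permutation p = 0.0286 each). The ratio of *Sik1* to *Sik2* was 0.42 higher, with SOR replicate 2 just below homecage replicate 1 (exact permutation p = 0.0571). Altogether 8 pairs of related genes were compared in this way. After Benjamini-Hochberg adjustment over the 8, both ratios to *Sik3* had p = 0.0762 and the ratio of *Sik1* to *Sik2* had p = 0.114 (exact permutation tests), so none passed. With 4 mice against 4 at least 5 of the 8 pairs would have to separate fully for any to pass.

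**Figure D3:**
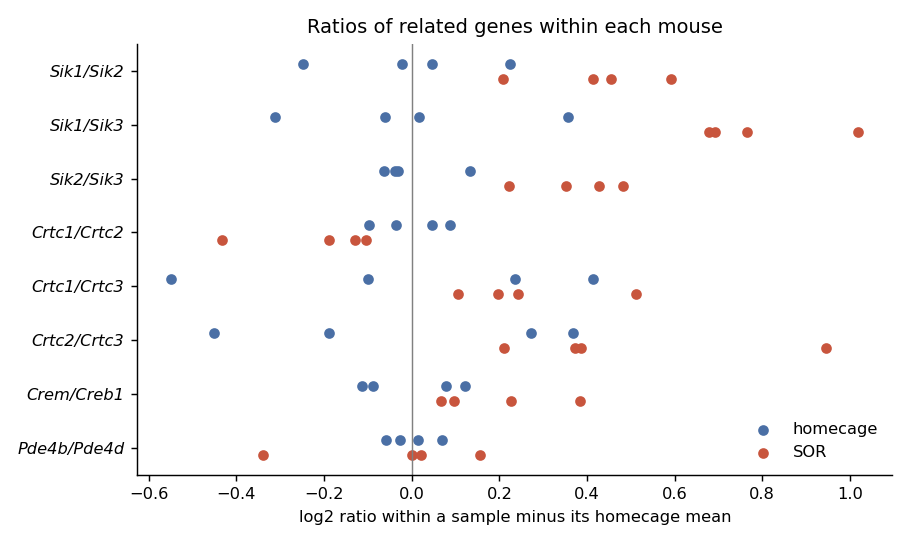
Log2 ratio of 2 related genes within each mouse, less the mean ratio of the homecage mice (horizontal axis), for 8 pairs; each point is a homecage (blue) or SOR (red) mouse. All SOR points lie to the right of all homecage points for *Sik1*/*Sik3* and *Sik2*/*Sik3*, and to the left for *Crtc1*/*Crtc2*.

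Since the family acts through cAMP-response elements, the 250 bases upstream of the transcript starts in RefSeq (GRCm38.p6) were searched on both strands for the full element TGACGTCA and for its core TGACG, which every full element also holds. Of the 10 genes, 7 had an entry, with 10 windows in all, and *Crem*, *Crtc2* and *Sik1* had none. Only *Pde4b* had more than 1 window. The annotation lists 13 transcript starts for *Pde4b*, 20 for *Pde4d* and 10 for *Creb1*, so the windows do not cover every start. The full element was in 0 of the 10 windows, where 1.55% of 32851 windows of this length held it. The core was in 2 of the 10, and 17.8% of all windows held it. The windows of *Sik2* and *Sik3* are shown as those of the SIK kinases with an entry, with each core in capitals. The window of *Sik2* is chr9:51009074-51009323 on the minus strand and that of *Sik3* is chr9:46012570-46012819 on the plus strand.
Sik2: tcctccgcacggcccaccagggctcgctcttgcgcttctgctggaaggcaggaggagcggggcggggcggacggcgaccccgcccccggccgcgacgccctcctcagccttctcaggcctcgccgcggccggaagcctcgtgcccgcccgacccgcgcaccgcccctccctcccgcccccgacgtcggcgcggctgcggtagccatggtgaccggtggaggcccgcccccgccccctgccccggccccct
Sik3: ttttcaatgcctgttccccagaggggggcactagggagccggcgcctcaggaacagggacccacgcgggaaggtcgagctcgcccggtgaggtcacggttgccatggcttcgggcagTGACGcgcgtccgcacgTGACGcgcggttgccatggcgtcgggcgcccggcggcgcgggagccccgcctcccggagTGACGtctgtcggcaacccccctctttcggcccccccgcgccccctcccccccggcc
The core begins at -133, -116 and -57 from the start of *Sik3* and is absent from the *Sik2* window. The other window with the core was one of *Pde4b*, at -34 and read on the other strand. A match is a run of letters only, and no binding was measured.

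*Creb1* (ENSMUSG00000025958, chromosome 1 from 64532645 to 64604548) encodes CREB itself, the activator at the centre of the route. The homecage mice had 121, 113, 107 and 105 CPM and the SOR mice 124, 123, 122 and 116 CPM. In all, 3 SOR mice were above all homecage mice and SOR replicate 4 was below homecage replicate 1. The log2 fold change was 0.12 (SE 0.0497, 95% interval 0.01 to 0.23, adjusted p = 0.441 in edgeR).

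*Crem* (ENSMUSG00000063889, chromosome 18 from 3266048 to 3337748) encodes the related factor whose transcripts give activators and, from a promoter inside the gene, the early repressor ICER. The table has 1 value for the whole gene, so these forms were not told apart. In homecage mice *Crem* had 9.06, 9.48, 9.28 and 7.71 CPM and in SOR mice 12.9, 11.5, 10.4 and 9.64 CPM. The groups did not overlap, but the lowest SOR mouse was only just above the highest homecage mouse. The means were 8.88 ± 0.801 and 11.1 ± 1.42 CPM (SD, n = 4 each), with a log2 fold change of 0.32 (SE 0.108, 95% interval 0.09 to 0.56, adjusted p = 0.338 in edgeR). None of the 13 other fits put *Crem* past the threshold, with adjusted p from 0.0781 to 0.446. Gm6225, a transcript on the opposite strand that shares 472 exon bases with *Crem*, had 0.983 ± 0.143 and 1.03 ± 0.136 CPM. Relative to *Creb1* within each mouse, the log2 ratio of *Crem* was 0.19 higher in SOR mice (exact permutation p = 0.143, 0.190 after adjustment over the 8 pairs).

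*Crtc1* (ENSMUSG00000003575, chromosome 8 from 70382355 to 70439579) is the CRTC coactivator that predominates in the brain, and it had the highest level of the 3 here. Its values were 45.6, 53.3, 56.0 and 53.6 CPM in the homecage group and 52.0, 55.4, 57.2 and 56.8 CPM after training. The groups overlapped, and homecage replicate 1 was the lowest of the 8. The log2 fold change was 0.09 (SE 0.0633, 95% interval -0.05 to 0.23, adjusted p = 0.699 in edgeR), and without homecage replicate 1 it was 0.031.

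*Crtc2* (ENSMUSG00000027936, chromosome 3 from 90254163 to 90264125), best known as the CREB coactivator of fasting metabolism in the liver, had 5.14, 5.66, 6.57 and 5.52 CPM in the homecage group and 7.71, 6.54, 6.86 and 7.11 CPM after training. Only SOR replicate 2 was within the homecage range, just below homecage replicate 3. The means of 5.72 ± 0.605 and 7.05 ± 0.493 CPM (SD, n = 4 each) gave a log2 fold change of 0.30 (SE 0.103, 95% interval 0.08 to 0.53, adjusted p = 0.350 in edgeR). The log2 ratio of *Crtc1* to *Crtc2* was 3.19 ± 0.0834 in homecage and 2.97 ± 0.150 in SOR mice, lower in every SOR mouse than in every homecage mouse (exact permutation p = 0.0286, 0.0762 after adjustment over the 8 pairs). The difference of -0.21 was -0.14 without SOR replicate 1.

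*Crtc3* (ENSMUSG00000030527, chromosome 7 from 80586627 to 80688877), the third coactivator of the family, had 10.3, 10.6, 21.7 and 15.2 CPM in the homecage group and 9.68, 13.7, 12.8 and 13.2 CPM after training. Homecage replicate 3 was highest, and the homecage mice varied more for *Crtc3* than for any other of the 10 genes, with a coefficient of variation of 36.9% against 0.884% to 18.6%. The log2 fold change was -0.23 (SE 0.220, 95% interval -0.72 to 0.26, adjusted p = 0.784 in edgeR), and without homecage replicate 3 it was 0.03.

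*Pde4b* (ENSMUSG00000028525, chromosome 4 from 102087543 to 102607259) encodes one of the PDE4 enzymes that the drug rolipram inhibits. It had 82.02, 85.8, 77.3 and 81.2 CPM in the homecage group and 70.9, 78.6, 74.9 and 71.4 CPM after training. Here 3 SOR mice were below all homecage mice, and SOR replicate 2 was just above the lowest of them. *Pde4b* was thus the only one of the 6 genes with an unadjusted p under 0.05 that was lower in SOR mice, with means of 81.6 ± 3.48 and 74.0 ± 3.59 CPM (SD, n = 4 each). The log2 fold change was -0.14 (SE 0.0472, 95% interval -0.25 to -0.04, adjusted p = 0.336 in edgeR).

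*Pde4d* (ENSMUSG00000021699, chromosome 13 from 108449948 to 109953461), the longest of these genes and a second PDE4 enzyme of hippocampal neurons, had 36.3, 35.5, 34.996 and 34.9 CPM in the homecage group and 30.8, 30.7, 41.2 and 30.6 CPM after training. The values of 3 SOR mice lay close together below all homecage mice and SOR replicate 3 lay above all of them. With all mice the log2 fold change was -0.09 (SE 0.0920, adjusted p = 0.806), and without SOR replicate 3 it was -0.21 (SE 0.0468, adjusted p = 0.166; edgeR quasi-likelihood test). SOR replicate 3 also had the lowest sums of oligodendrocyte markers, with 4338 CPM against 4813 to 5787 CPM in the other 7 mice, of astrocyte markers, with 1300 CPM against 1351 to 1437 CPM, and of microglia markers, with 190.5 CPM against 198.4 to 224.0 CPM. The same mouse had the highest *Sik1* and *Sik2* values, 9.83 and 39.2 CPM. Without it the log2 fold changes of *Sik1* and *Sik2* were 0.65 and 0.31. SOR replicate 2 had 38.6 CPM of *Sik2* and an oligodendrocyte sum of 5310 CPM. Among the passing CREB target genes listed below, SOR replicate 3 was highest for *Egr1*, *Fos*, *Fosb*, *Per2*, *Nr4a2* and *Nr4a3*. Other mice were highest for *Arc*, *Egr2*, *Junb*, *Nr4a1* and *Nfil3*. The part of the cell type markers in the values of *Pde4d*, *Sik1* and *Sik2* was not tested. In bulk tissue fewer cells of a type and less RNA per cell cannot be told apart. The ratio of *Pde4b* to *Pde4d* overlapped between the groups (exact permutation p = 0.857), with a difference of -0.040 that was 0.059 without SOR replicate 3. As with *Crem*, each PDE4 gene gives several long and short isoforms that the table does not separate.

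Set against each other per kilobase of annotated exons, the 10 genes spanned about 1 order of magnitude in homecage mice. *Sik3* was highest with 9.58 ± 0.0847 CPM per kb (SD, n = 4), followed by *Creb1* with 8.11 ± 0.527 and *Pde4b* with 7.73 ± 0.330 CPM per kb, whose ranges overlapped. *Crtc1* came next with 4.66 ± 0.401 CPM per kb and stood apart from its neighbours in this order. *Sik2* with 2.98 ± 0.164 and *Pde4d* with 2.95 ± 0.0530 CPM per kb could not be ordered. *Crem*, *Crtc3* and *Crtc2* also overlapped in turn, at 1.51 ± 0.136, 1.47 ± 0.542 and 1.398 ± 0.148 CPM per kb. *Sik1* had the lowest homecage mean, 0.930 ± 0.173 CPM per kb, below the range of *Crtc2* but overlapping that of *Crtc3*, and had 1.57 ± 0.228 CPM per kb in SOR mice. Thus the kinases hold both ends of the order, and the member with the lowest level had the widest difference. Exon length was summed over all annotated transcripts of a gene, so that rarely used exons lower its value.

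**Figure D4:**
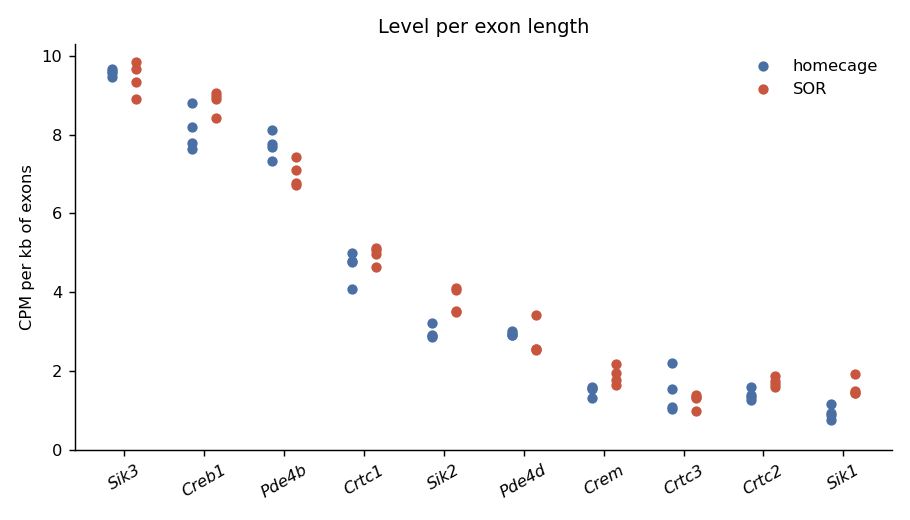
Level of each gene in CPM per kilobase of annotated exons (vertical axis, from 0) in each homecage (blue) and SOR (red) mouse, ordered by the homecage mean. *Sik3*, *Creb1* and *Pde4b* are above the other 7 genes in every mouse, and *Sik1* has the lowest homecage mean.

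The genes whose log2 CPM followed *Sik1* most closely over the 8 mice, among the 16342 genes that averaged 1 CPM or more, were *Jade2* (Pearson r = 0.977), the noncoding RNA *Mirg* (r = 0.977) and *Mfhas1* (r = 0.973). These values describe 8 mice that fall into both groups, and any gene that separates the groups shares part of the pattern. None of the 3 passed the test across all genes, with log2 fold changes of 0.22, 0.32 and 0.23 and adjusted p of 0.152, 0.184 and 0.0679 (edgeR quasi-likelihood test).

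The other genes of the route were read in 5 lists by role. Over all genes tested, 4.54% were higher and 5.51% were lower at an unadjusted p under 0.05 in edgeR. Of 22 genes for cAMP production and protein kinase A (G proteins, adenylyl cyclases, kinase subunits and inhibitors), 0 were past an adjusted p of 0.05 in edgeR's quasi-likelihood test, and at an unadjusted p under 0.05 there was 1 higher gene and 0 lower genes. This was *Adcy6*, an adenylyl cyclase, with 26.8 ± 0.817 and 30.04 ± 2.95 CPM (SD, n = 4 each; adjusted p = 0.473). Log2 fold changes in this list ran only from -0.15 to 0.17, with a median of -0.04. Of 14 other phosphodiesterases, 0 were past the adjusted p, and 1 was higher and 3 were lower at the unadjusted p. *Pde1c*, a phosphodiesterase regulated by calcium and calmodulin, was nearest, with 15.97, 13.3, 14.5 and 13.1 CPM in the homecage group and 9.18, 12.5, 11.2 and 10.9 CPM after training. All 4 SOR mice were below all homecage mice (log2 fold change -0.38, SE 0.105, adjusted p = 0.230).

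Among 20 other CREB and ATF factors, coactivators and CREB kinases, 0 passed, with 3 higher and 1 lower at an unadjusted p under 0.05. The lower gene was *Creb5*, a factor related to ATF2, with 7.68, 7.43, 7.62 and 5.56 CPM in the homecage group and 3.71, 5.06, 3.78 and 4.16 CPM after training. Its groups did not overlap, although homecage replicate 4 stood well below the other homecage mice, and its log2 fold change of -0.76 (SE 0.141, adjusted p = 0.0633) was as wide as that of *Sik1* and opposite in sign. Of 20 regulators and other substrates of CRTC and SIK, such as calcineurin subunits, LKB1 and class IIa histone deacetylases, 0 passed, and 2 were higher and 0 lower at the unadjusted p. *Rcan1*, an inhibitor of calcineurin, had the smallest p, with 36.0 ± 0.989 and 39.7 ± 0.851 CPM (SD, n = 4 each; log2 fold change 0.14, adjusted p = 0.279 in edgeR) and no overlap between the groups. The medians of these lists, -0.07 for the phosphodiesterases, 0.00 for the factors and -0.01 for the regulators, were close to the -0.02 of all genes tested.

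The last list held 26 textbook CREB target genes. In edgeR's quasi-likelihood test 11 of the 26 passed 0.05 after adjustment, all of them higher in SOR mice, where 0.309% of all genes passed. A fold change over 1.4 was also reached by 10 of the 11. Counted by sign alone, 22 genes of the list were higher and 4 were lower, where 43.8% of all genes tested were higher. The median log2 fold change of the list was 0.42. The 11 were *Arc*, *Per2*, *Egr2*, *Fosb*, *Junb*, *Fos*, *Nr4a2*, *Nr4a1*, *Egr1*, *Nr4a3* and *Nfil3*. Many of them are immediate early genes that other routes, among them MAP kinase signalling, also induce, and the study discusses several for these same samples, so the list is not independent evidence of its direction. *Nr4a2*, an orphan receptor, had the smallest of the 11 changes at 0.37, with 36.0 to 36.2 CPM in homecage and 44.5 to 49.5 CPM in SOR mice. *Sik2*, at 0.35, was of a like size but varied more between mice. *Nfil3*, a basic leucine zipper repressor, rose from 6.29 ± 0.555 to 9.49 ± 0.919 CPM (SD, n = 4 each), a log2 fold change of 0.59 and less than the 0.76 of *Sik1*, with an adjusted p of 0.0441. The other 15 genes of the list did not pass. The lowest log2 fold change among them was that of *Npas4*, -0.49, with 3.49 ± 1.17 and 2.48 ± 0.402 CPM (SD, n = 4 each; adjusted p = 0.503 in edgeR).

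**Figure D5:**
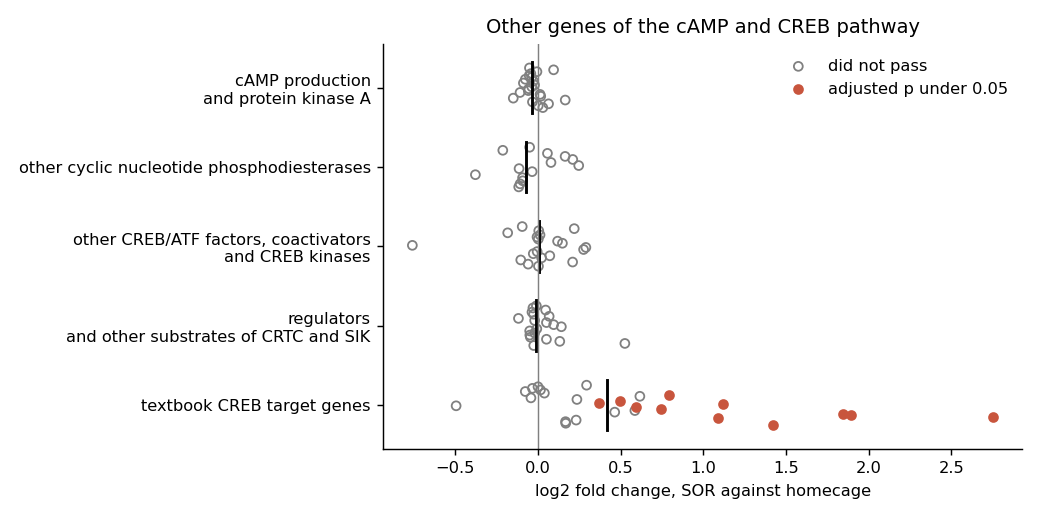
Log2 fold change between SOR and homecage mice (horizontal axis) of every gene in 5 pathway lists; filled red points passed an adjusted p of 0.05, open points did not, and black bars mark list medians. Passing genes appear only among the 26 textbook CREB target genes, 11 of them.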

How the data were processed

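Bulk RNA-seq libraries of 4 homecage and 4 SOR mice were used; the other 26 samples of the series were not analysed here. Libraries were made with a stranded total RNA kit with ribosomal depletion, although the labels name polyA RNA. The authors aligned reads with STAR within bcbio-nextgen and deposited estimated counts per gene, summarized with tximport as the deposited table is named, while the study's methods name featureCounts; many values are not whole numbers. The quantifier, any scaling by transcript length in that step and tool versions are not given in the sources used here, so levels per kb may carry such scaling. The build is mm10. Estimated counts were rounded, filtered with filterByExpr, scaled with upper-quartile factors and tested across all genes in edgeR 4.0.16 (glmQLFit and glmQLFTest, R 4.3.3), with Benjamini-Hochberg adjustment. Standard errors and 95% intervals come from the F statistic and its degrees of freedom. Within-mouse log2 ratios (count + 0.5) and log2 CPM were compared with exact permutation tests over the 70 assignments. Positions, strands and exons are from GENCODE M21 (GRCm38). Alternatives were other scalings, filters, DESeq2 1.42.0, limma-voom (limma 3.58.1), RUVs factors with the likelihood ratio test, a replicate block, counts not rounded and leaving out each mouse. The study's methods name RUVs but no number of factors, so none was used in the main comparison. The fit was also run on counts simulated from its own dispersions, which cannot show whether its model suits these mice. The 10 genes and the lists were chosen with earlier results of these data known. Genes named besides the 10 are, by rule, those of the lists past an adjusted p of 0.05 or with the smallest p of their list, and the 3 genes that follow the member with the smallest p most closely. *Ppp2r1b* and Gm6225 are named as overlapping genes, and *Npas4* as the CREB target gene with the lowest log2 fold change. Replicates are separate mice.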

Additional observations from a re-analysis of the deposited data

Results flagged for a closer look

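In each group of 4 mice, a sample was noted when its gap to the nearest other took up more of the group's range than Dixon's 95% critical value allows; 50 groups over 25 genes were examined, 5 were noted, and chance alone gives about 1 in 20. *Sik1* in SOR replicate 3 was 9.83 CPM, with 7.42 to 7.62 CPM in the other SOR mice. *Sik2* in homecage replicate 1 was 30.7 CPM, with 27.4 to 27.9 CPM in the others. *Pde4d* in SOR replicate 3 was 41.2 CPM, with 30.6 to 30.8 CPM in the others. *Creb5* in homecage replicate 4 was 5.56 CPM, with 7.43 to 7.68 CPM in the others, and *Egr2*, an immediate early factor, was 1.85 CPM in homecage replicate 1, with 0.874 to 0.954 CPM in the others.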

How the results depend on the processing

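The count called among the 10 genes was 0 and became 1 (*Sik1*) without a filter on low counts, with the likelihood ratio test, with DESeq2 and with 1, 2 or 3 RUVs factors. At the adjusted p alone, chosen after seeing the data, it was 1 with TMM or RLE scaling (*Sik2*) or without a filter (*Sik1*), and 2 with the likelihood ratio test, DESeq2 and each number of RUVs factors. With 1 mouse left out it was 0 in all 8 fits. Over all genes, 38 were called; 105 were with the likelihood ratio test, 112 with DESeq2, 134, 191 and 203 with 1, 2 and 3 RUVs factors, 68 at the adjusted p alone and 8 in a test against a fold change of 1.4. Leaving out 1 mouse gave between 22 and 38, with 22 without homecage replicate 2 and 25 without homecage replicate 4. The 5 lists held 10 called genes, 5 in the test against a fold change of 1.4 and between 6 and 9 with 1 mouse left out (6 without homecage replicate 2). With 1 mouse left out, the log2 fold change of *Crtc3* ran from -0.36 to 0.031, above 0 only without homecage replicate 3, and that of *Sik3* from -0.043 to 0.0040, above 0 only without SOR replicate 1. Samples with the same replicate number did not deviate together (correlations from -0.084 to 0.073); the replicate block gave 30 called genes over all and 0 of the 10, and changed no call among them. The 8 ratios kept their side of the threshold in all 80 alternatives and their sign in all but 1, *Pde4b* to *Pde4d* without SOR replicate 3 (0.059), but leaving out a mouse (smallest p 0.0571) or pairing by number (smallest p 0.125) cannot reach 0.05 and says nothing about stability. The causes were not tested. Counts were lowest for *Sik1* and *Crtc2*, with as few as 252.9 and 282.5 in a library, and the part of depth was not tested.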
